A study of Mus musculus with 6 samples.

Results

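The 9 genes described here encode the channels, pump subunit, transporters and gap junction proteins with which glia move potassium, water and small molecules. They are the connexin genes Gja1, Gjb6 and Gjb2, the water channel gene Aqp4, the potassium channel genes Kcnj10 and Kcnj16, the sodium pump subunit gene Atp1b2, and the transporter genes Slc4a4 and Slc12a2. They were taken by name from the 37620 genes of the count files, and all 9 were found and passed the filter on low values, above 1 CPM (counts scaled to a common library total) in at least 1 sample, that left 15056 genes.

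Astrocytes and radial glia-like neural stem cells (RGLs) clear the potassium that active neurons release through inward rectifier channels and the sodium-potassium pump. Gap junctions then spread the load through the coupled glial network, and Aqp4 lets water follow at the endfeet that wrap blood vessels. In the adult dentate gyrus these genes are known as astrocyte genes that RGLs also express, and several of them are also used by choroid plexus, meninges and vessels.

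Ribosome-bound mRNA was profiled in 3 Klf9 +/+ samples and 3 Klf9 f/f samples, with 6 dentate gyri of 3 mice, aged 2 to 3 months, pooled for each. All mice carried Gli1CreERT2, a tamoxifen-inducible Cre under the control of the Gli1 gene, and Rpl22HA f/+, whose recombination puts an HA tag on a ribosomal protein so that an antibody can pull down ribosomes with their mRNA. All received tamoxifen in 3 injections 12 hr apart and were sampled 4 days after the last, and only the Klf9 f/f mice also lost exon 1 of Klf9, a Krüppel-like transcription factor, where Cre acted. By the study's account this Cre acts in astrocytes as well as RGLs, and recombination of Klf9 was not complete. By their names, the libraries of replicates 1 and 2 belong to series 22 and those of replicate 3 to series 32 in both genotypes, and the replicate numbers are names only. Values of single samples are given below in the order of replicates 1, 2 and 3.

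The samples held 21594714 to 66343759 counts on genes. Klf9 itself, counted over the whole gene, lay between 139 and 203.9 CPM in the Klf9 +/+ samples and between 114 and 121 CPM in the Klf9 f/f samples, so that the log2 fold change, given here and below ± its standard error, was -0.59 ± 0.15 (adjusted p = 0.844 from edgeR). The drop was mostly that of series 22, at -0.78 ± 0.19. In series 32 Klf9 stood at 139 CPM with Klf9 +/+ and 120 CPM with Klf9 f/f, a log2 difference of -0.21 ± 0.27. The defining markers of the targeted cells were present, as all 14 astrocyte markers and all 11 RGL markers passed the filter, with summed levels of 14135 to 20958 CPM and 2593 to 4517 CPM. Markers of other cells and tissues were present too. The 11 granule neuron markers summed to 1393 to 1755 CPM with Klf9 +/+ and to 1409 to 1684 CPM with Klf9 f/f. In the same order, the 12 oligodendrocyte lineage markers summed to 628 to 891 CPM and 637 to 833 CPM. The 10 mural markers summed to 588 to 1126 CPM and 441 to 763 CPM. The 14 choroid plexus markers summed to 509, 975 and 3040 CPM with Klf9 +/+ and to 335, 262 and 656 CPM with Klf9 f/f. The 14 meningeal markers summed to 12373 to 17052 CPM in Klf9 +/+ and 7600 to 11812 CPM with Klf9 f/f, most of it from Ptgds (13286 ± 2408 and 8676 ± 1754 CPM, SD, n = 3), and the 12 endothelial markers to 345 to 745 CPM and 145 to 531 CPM, which overlap. In these bulk samples, fewer cells of a type and less RNA per cell cannot be told apart.

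Per length of exon, Gja1 was the highest of the 9 genes and Slc12a2 the lowest. Gja1, which encodes connexin 43, the main astrocyte gap junction protein, stood at 205 ± 59.0 (SD, n = 6) CPM per kb of exon over all samples. The sodium pump subunit gene Atp1b2 followed at 126 ± 57.9, Gjb6, which encodes connexin 30, at 89.0 ± 20.8, Aqp4 at 45.3 ± 14.5 and Kcnj10, which encodes the inward rectifier Kir4.1, at 27.5 ± 9.03 CPM per kb. The lower levels were those of Gjb2 (connexin 26) at 15.4 ± 9.44, the sodium bicarbonate cotransporter gene Slc4a4 at 12.2 ± 4.09, Kcnj16 (Kir5.1) at 8.69 ± 4.36 and Slc12a2, which encodes the sodium, potassium and chloride cotransporter NKCC1, at 7.51 ± 2.83 CPM per kb. Gja1 lay above Atp1b2, Gjb6 above Aqp4, and Slc4a4 above Kcnj16 in 6 of 6 samples. Atp1b2 lay above Gjb6, and Gjb2 above Slc4a4, in only 4 of 6 samples, and Kcnj16 above Slc12a2 in 3 of 6, so these neighbours did not differ beyond their spread.

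**Figure D1:**
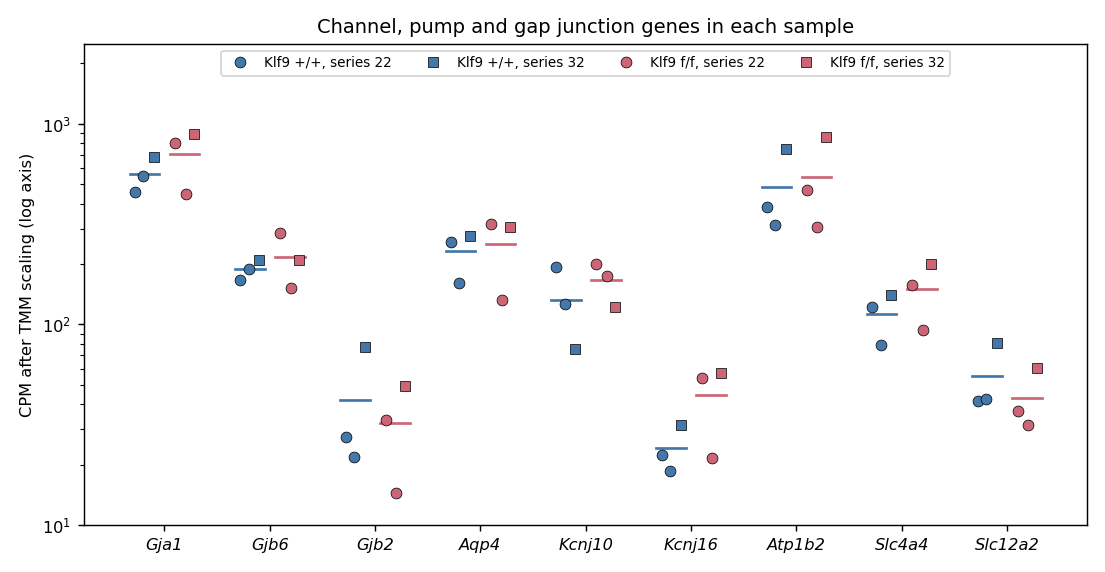
Level of each gene in CPM after TMM scaling (log axis) in the 6 samples, with circles for series 22, squares for series 32 and a bar at each group mean. The genotypes overlap for all 9 genes, and the 2 circles of Klf9 f/f stand far apart for Kcnj16, at 54.1 and 21.6 CPM.

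These genes differed in level between the series. For 8 of the 9 genes the mean level was higher in series 32 than in series 22, by 2.60 times for Gjb2, 2.19 times for Atp1b2 and 1.85 times for Slc12a2, while Kcnj10 stood at 0.568 of its series 22 level. How many of all genes were higher in series 32 was not counted. Genotypes were therefore compared with the series as a term of the fit and again within each series.

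Between the genotypes, 1 of the 9 genes, Kcnj16, was higher in Klf9 f/f and 1, Slc12a2, was lower at the threshold of the study's methods, a change of at least 1.2-fold with an unadjusted p under 0.05. At this threshold 1.82% of all genes tested were called higher and 2.50% lower, 4.32% in all, and by the likelihood-ratio test of edgeR, which called the same members, 1.93% and 2.97%. The share called in all is no larger than the 0.05 that an unadjusted p under 0.05 admits where no gene differs. The other 7 genes did not pass. No member had an adjusted p under 0.05 in the quasi-likelihood test of edgeR, in which 0 genes of the 15056 had, against 650 at an unadjusted p under 0.05 and against 58 at an adjusted p under 0.05 by its likelihood-ratio test and 39 by DESeq2. The log2 fold changes of the 9 genes ran from -0.34 to 0.88 with a median of 0.20, beside a median of 0.00084 over all genes tested, and 7 of the 9 were above 0, as were 50.2% of all genes. No member separated the 3 Klf9 f/f samples from the 3 Klf9 +/+ samples, as 2.03% of all genes did upward and 1.35% downward, and none was higher in every Klf9 f/f sample than in the Klf9 +/+ samples of its series, as 7.78% of all genes were.

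**Figure D2:**
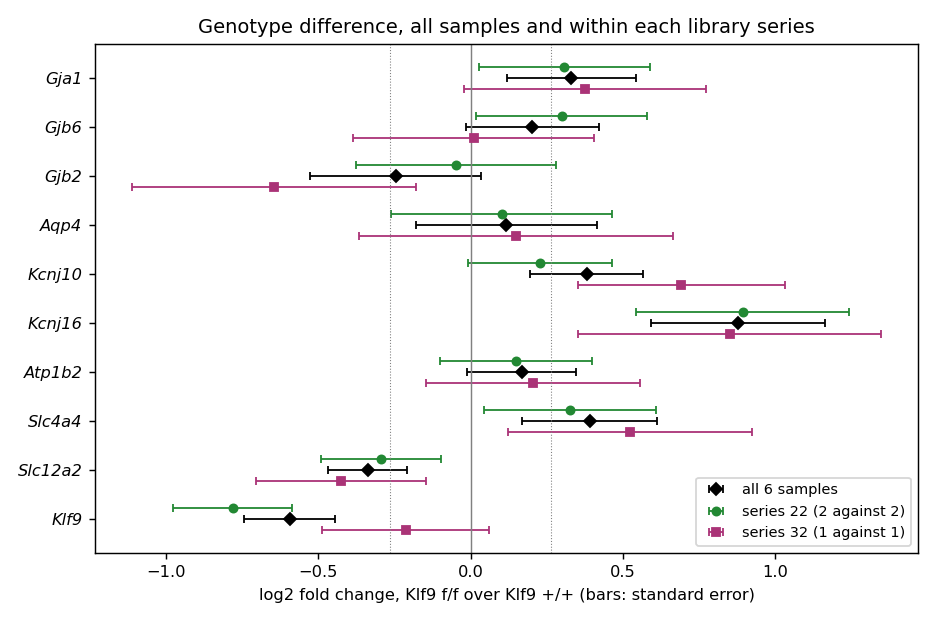
Log2 fold change, Klf9 f/f over Klf9 +/+, with its standard error, for the 9 genes and Klf9 over all 6 samples (black), within series 22 (green, 2 samples against 2) and within series 32 (purple, 1 against 1). Dotted lines mark 1.2-fold. Kcnj16 lies at 0.88 overall and near it in both series, and Slc12a2 at -0.34.

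Kcnj16 encodes Kir5.1, a potassium channel subunit that joins Kir4.1 in channels sensitive to pH. Its position in mm9 is chromosome 11, 110829347 to 110889282, plus strand, with 4 annotated transcripts, and no exon of another gene overlaps its exons. Its level was 22.2, 18.6 and 31.7 CPM with Klf9 +/+, and 54.1, 21.6 and 57.1 CPM with Klf9 f/f. Klf9 f/f replicates 1 and 3 were above all Klf9 +/+ samples, whereas Klf9 f/f replicate 2 lay between the 2 Klf9 +/+ samples of its own series. The fold was 1.84, a log2 fold change of 0.88 ± 0.29 (unadjusted p = 0.0129 and adjusted p = 1.00 from edgeR). The log2 difference was 0.89 ± 0.35 within series 22 and 0.85 ± 0.50 within series 32. It was the only member to pass within series 22, where 1.24% of all genes were called higher and 1.45% lower, and no member passed within series 32, where 0.272% and 2.24% were. Without Klf9 f/f replicate 1 the log2 fold change was 0.42 and did not pass (unadjusted p = 0.0774 from edgeR). Without Klf9 f/f replicate 2 it was 1.17 and passed. With the mean level of the astrocyte markers as a covariate it was 0.23 ± 0.39 and did not pass. With that of the endothelial, mural and meningeal markers it was 1.39 ± 0.22 and passed. Both marker levels went with the genotype in part, so these fits cannot fully tell them from it. Kcnj16 was called in 14 of the 17 alternatives. Among these, the fits without either replicate 3 compare the genotypes in series 22 only, as does the fit of series 22 alone, so they are not separate results. Over samples, without the series term, an exact permutation test of the CPM means gave p = 0.3, where the smallest that 3 samples against 3 allow is 0.1. The gene's adjusted p ran from 6.57e-05, with no filter beyond 1 count, to 1.00 over the 17 alternatives. In that unfiltered setting 334 of 25153 genes had an adjusted p under 0.05 from edgeR, against 0 in the main fit. With the endothelial, mural and meningeal covariate the gene's adjusted p was 0.0268 from edgeR, where 60 genes were under 0.05.

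Kcnj10, whose product Kir4.1 is the main potassium channel of astrocytes and can form channels alone or with Kir5.1, stood at 194, 127 and 75.6 CPM with Klf9 +/+ and at 200.3, 175 and 122 CPM with Klf9 f/f. The groups overlapped, and Klf9 f/f replicate 1 was the only Klf9 f/f sample of series 22 above both Klf9 +/+ samples of that series. Its log2 fold change was 0.38 ± 0.19 and did not pass (unadjusted p = 0.0704 from edgeR). Without Klf9 +/+ replicate 1 it was 0.62 and passed (unadjusted p = 0.00265 from edgeR), and without Klf9 +/+ replicate 2, Klf9 +/+ replicate 3 or Klf9 f/f replicate 3 it was 0.26, 0.22 and 0.23. Per length, Kcnj16 stood to Kcnj10 at 0.157, 0.202 and 0.576 in Klf9 +/+ and at 0.371, 0.169 and 0.642 in Klf9 f/f replicates 1, 2 and 3. These ratios were highest in the samples of series 32 and overlapped between the genotypes (exact permutation test, p = 0.6).

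The promoters of these potassium channel genes are shown because Klf9 belongs to a family known to bind GC-rich boxes. The 250 bases before a transcription start are given from RefSeq (GRCm38.p6), 5′ to 3′ on the plus strand, with capitals on each GGGCGG or CACCC on either strand. The windows are chr11:110967783-110968032 for the most upstream of the 4 starts of Kcnj16, chr11:111023610-111023859 for its most downstream start, and chr1:172340960-172341209 for Kcnj10.
Kcnj16, upstream start: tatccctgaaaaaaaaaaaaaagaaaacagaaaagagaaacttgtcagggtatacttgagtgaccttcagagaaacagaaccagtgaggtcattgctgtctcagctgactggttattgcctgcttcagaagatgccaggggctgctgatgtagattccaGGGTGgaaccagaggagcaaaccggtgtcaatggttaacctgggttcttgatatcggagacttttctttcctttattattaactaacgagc
Kcnj16, downstream start: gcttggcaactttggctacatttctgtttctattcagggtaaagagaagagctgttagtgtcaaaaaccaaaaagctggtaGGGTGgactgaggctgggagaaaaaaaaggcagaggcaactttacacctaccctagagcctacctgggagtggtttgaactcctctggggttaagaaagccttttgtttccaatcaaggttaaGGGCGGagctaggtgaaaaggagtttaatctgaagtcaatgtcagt
Kcnj10: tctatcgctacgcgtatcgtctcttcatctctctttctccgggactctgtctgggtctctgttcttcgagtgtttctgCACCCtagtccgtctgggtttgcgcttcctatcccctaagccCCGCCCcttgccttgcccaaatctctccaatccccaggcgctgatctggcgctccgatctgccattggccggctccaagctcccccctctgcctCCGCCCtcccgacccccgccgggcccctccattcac

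GGGCGG occurred 2 times before Kcnj10, 1 time before the downstream start of Kcnj16 and 0 times before its other 3 starts. CACCC occurred 1 time before Kcnj10 and 1 time in each Kcnj16 window printed. Over the windows of the 6 members counted, Gja1, Gjb6, Gjb2, Kcnj10, Kcnj16 and Slc4a4, 4 of 10 held GGGCGG and 7 of 10 held CACCC. No window of Aqp4, Atp1b2 or Slc12a2 was counted. Among all 32851 windows of this length, 32.7% held the first and 52.0% the second. A match is a description of the letters and not a binding site, and binding was not measured here.

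Of the gap junction genes, Gja1 and Gjb6 were on average higher and Gjb2 lower in Klf9 f/f, and none passed. Gja1 (chromosome 10 of mm9, 56097106 to 56110225) was at 454, 552 and 683 CPM with Klf9 +/+ and at 800.2, 446 and 886 CPM with Klf9 f/f. Klf9 f/f replicate 2 was the lowest of all 6 samples and Klf9 f/f replicate 3 the highest. The log2 fold change of Gja1 was 0.33 ± 0.21, and it did not pass. It was 0.064 without Klf9 f/f replicate 1, and 0.54 without Klf9 f/f replicate 2, where it passed (unadjusted p = 0.0135 from edgeR).

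Gjb6 (chromosome 14, 57742140 to 57752448), the partner connexin of Gja1 in astrocytes and RGLs, was at 167, 189 and 209 CPM with Klf9 +/+ and at 286, 151 and 210.5 CPM with Klf9 f/f. Its samples overlapped, with Klf9 f/f replicate 1 the highest and Klf9 f/f replicate 2 the lowest. The log2 fold change was 0.20 ± 0.22, and -0.13 without Klf9 f/f replicate 1. Per length, Gjb6 stood to Gja1 at 0.418 to 0.502 in Klf9 +/+ and at 0.325 to 0.489 in Klf9 f/f, and the genotypes overlapped.

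Gjb2, which lies 18601 bp from Gjb6 on the same strand of chromosome 14 (57717437 to 57723539), is used by astrocytes and strongly by the meninges. It stood at 27.4, 21.9 and 76.8 CPM with Klf9 +/+ and at 33.2, 14.4 and 49.2 CPM with Klf9 f/f, highest in both samples of series 32. Its log2 fold change was -0.25 ± 0.28, with -0.05 in series 22 and -0.64 in series 32. Without Klf9 f/f replicate 1 it was -0.72 and passed (unadjusted p = 0.00194 from edgeR). The meningeal markers, of which 2 of 14 were called lower and 0 higher, had a mean level in Klf9 f/f replicates 1, 2 and 3 that differed by 0.21, -0.91 and -0.78 log2 from the Klf9 +/+ mean of the series, and Gjb2 by 0.44, -0.76 and -0.64. With the mean level of the markers of endothelium, mural cells and meninges as a covariate, the log2 fold change of Gjb2 was 0.33 (unadjusted p = 0.0998 from edgeR). This covariate does not single out the meninges, and the endothelial markers differed by 0.040, -1.98 and -1.44 in the same samples. The part of any of these tissues in the level of Gjb2 was not tested.

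Aqp4, the water channel of the astrocyte endfoot, was at 257, 159.9 and 276 CPM with Klf9 +/+ and at 316, 132 and 306 CPM with Klf9 f/f. Each genotype held a sample far below its other samples, replicate 2 in both, and the groups overlapped over nearly their whole range. The log2 fold change was 0.12, smaller than its standard error of 0.30, the largest of the 9 genes. It was -0.31 without Klf9 f/f replicate 1 and 0.41 without Klf9 f/f replicate 2, and neither passed.

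Atp1b2 (chromosome 11, 69413238 to 69419444) encodes a beta subunit of the sodium pump that is known for glia. It stood at 383, 314 and 749.7 CPM with Klf9 +/+ and at 466, 307 and 864 CPM with Klf9 f/f. The samples of series 32 were the highest of each genotype and Klf9 f/f replicate 2 was the lowest of all. The log2 fold change was 0.17 ± 0.18, within series 22 0.15 and within series 32 0.20.

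Slc4a4 (chromosome 5, 89315843 to 89668678) encodes NBCe1, which carries sodium and bicarbonate into astrocytes and shapes the pH around active neurons. It was at 121, 79.0 and 139 CPM with Klf9 +/+ and at 157, 93.8 and 200.4 CPM with Klf9 f/f. Klf9 f/f replicates 1 and 3 were the 2 highest samples, and Klf9 f/f replicate 2 lay between the 2 Klf9 +/+ samples of its series. The log2 fold change was 0.39 ± 0.22 and did not pass (unadjusted p = 0.110 from edgeR). It was 0.17 without Klf9 f/f replicate 1 and 0.25 without Klf9 +/+ replicate 2, and it passed without Klf9 +/+ replicate 1, at 0.61, or Klf9 f/f replicate 2, at 0.60.

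Slc12a2, on chromosome 18, encodes NKCC1, which loads cells with sodium, potassium and chloride and is known in the apical membrane of the choroid plexus, in glia and in immature neurons. It stood at 41.6, 42.4 and 81.0 CPM with Klf9 +/+ and at 36.9, 31.6 and 60.3 CPM with Klf9 f/f. Every Klf9 f/f sample lay below the Klf9 +/+ samples of its own series, as for 5.53% of all genes, and across series the genotypes overlapped. The log2 fold change was -0.34 ± 0.13 (unadjusted p = 0.0271 and adjusted p = 1.00 from edgeR), -0.29 within series 22 and -0.42 within series 32. The choroid plexus markers, of which 11 of 14 were called lower and 0 higher, moved the same way. Their mean level in Klf9 f/f replicates 1, 2 and 3 differed by -1.47, -1.79 and -2.26 log2 from the Klf9 +/+ mean of the series, and Slc12a2 by -0.19, -0.41 and -0.42. With that mean level as a covariate, Slc12a2 was at -0.18 ± 0.31. The marker level was itself lower in every Klf9 f/f sample than in the Klf9 +/+ samples of its series. This fit therefore cannot tell it from the genotype, and its part in the change of Slc12a2 was not tested. The call was lost in 9 of the 17 alternatives, among them the fits without Klf9 +/+ replicate 2, Klf9 +/+ replicate 3, Klf9 f/f replicate 2 or Klf9 f/f replicate 3, with log2 fold changes of -0.34, -0.30, -0.29 and -0.29. With the series as a term, the fits without either replicate 3 compare the genotypes in series 22 only. They are nearly the same result as the fit of series 22 alone.

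For 7 of the 9 genes, the Klf9 f/f replicates of series 22 differed from each other by more than the genotypes did in that series. No share of all genes was taken for this count. The median size of the difference between these replicates was 0.84 log2 for the 9 genes, beside 0.25 over all genes tested. Klf9 f/f replicate 1 exceeded replicate 2 of that genotype for all 9 genes, by 1.14 times for Kcnj10 to 2.51 times for Kcnj16, with a median of 1.79 times. It did so for 47.2% of the genes with a mean of 10 CPM or more. For 7 of the 9 genes the ratio was above 1.5, and this was so for 5.49% of the 10383 genes with a mean of 10 CPM or more. Klf9 f/f replicate 1 was above both Klf9 +/+ samples of its series for 8 genes, and Klf9 f/f replicate 2 was below both for 6 and between them for 3. No share of all genes was taken for these counts. The Klf9 +/+ samples of series 22 had ratios, replicate 1 over replicate 2, of 0.823 to 1.61. In series 32, with 1 sample of each genotype, Klf9 f/f was higher for 7 of the 9 genes. The median log2 difference there was 0.20 for the 9 genes, beside 0.023 over all genes tested.

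The astrocyte markers had a smaller spread between these replicates. Of the 14 astrocyte markers, replicate 1 exceeded replicate 2 for 10, for 2 of them by more than 1.5 times, with a median of 1.17 times. Their mean level in Klf9 f/f replicates 1, 2 and 3 was 0.40, 0.11 and 0.55 log2 above the Klf9 +/+ mean of the series, and 5 of the 14 were called higher and 0 lower. The RGL markers were close together in replicates 1 and 2, at -0.0086 and -0.0066, and at 0.29 in replicate 3. The endothelial markers, of which 3 of 12 were called lower and 0 higher, lay at 0.040, -1.98 and -1.44 in Klf9 f/f replicates 1, 2 and 3, and the mural markers, 5 of 10 called lower and 0 higher, at -0.30, -0.92 and -1.40. With the endothelial, mural and meningeal level as a covariate, 7 of the 9 genes were called higher and 0 lower, where 5.12% of all genes were called higher. With the astrocyte marker level as a covariate, 0 were called in either direction, where 1.10% of all genes were called higher and 3.76% lower, and 3 of the 9 log2 fold changes were above 0. Both covariates went with the genotype in part. All 14 astrocyte markers had a log2 fold change above 0, and 0 of the endothelial, mural and meningeal markers did. Neither fit can fully tell its covariate from the genotype, and the part of either was not tested.

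**Figure D3:**
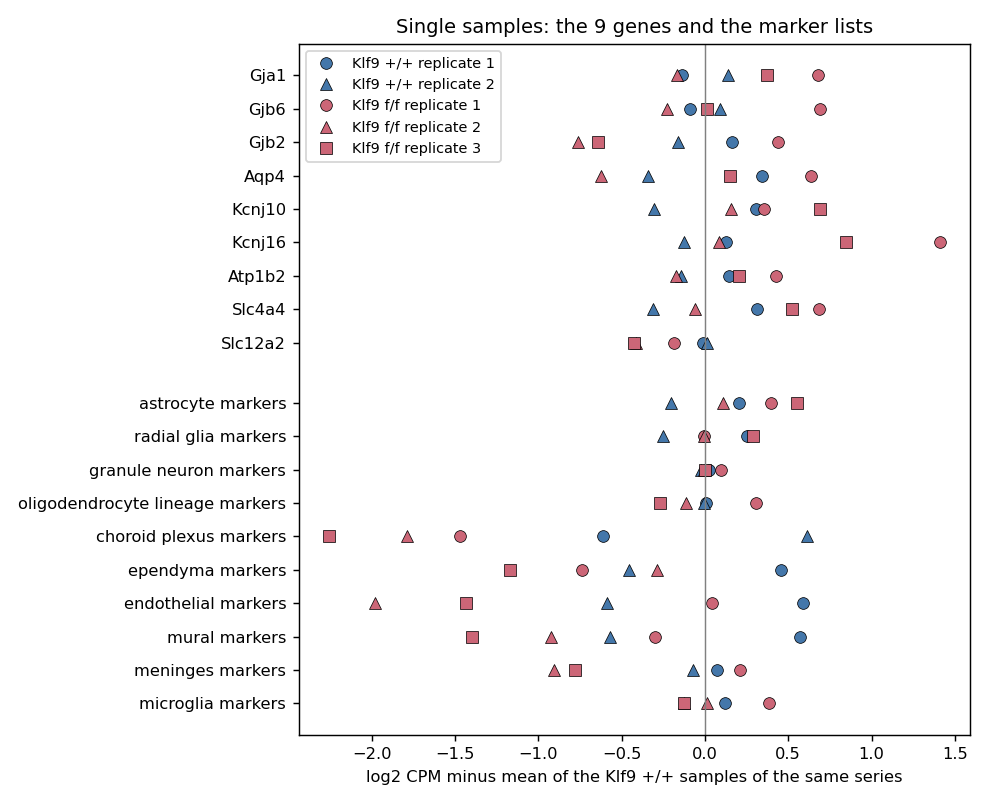
Log2 CPM of each gene, and mean log2 CPM of each marker list, minus the mean of the Klf9 +/+ samples of the same series, for each sample (blue, Klf9 +/+ of series 22; red, Klf9 f/f). Klf9 f/f replicate 1 lies to the right of Klf9 f/f replicate 2 for all 9 genes, by 1.32 for Kcnj16 and 1.26 for Aqp4, against 0.29 for the astrocyte markers.

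No difference of the genotype effect between the series was found for these genes. All 9 log2 differences had the same sign in both series, a count for which no share of all genes was taken. Of the 9, 0 had an unadjusted p under 0.05 in edgeR's test of series 32 against series 22, as 1.53% of all genes had. The smallest unadjusted p was 0.284, for Kcnj10, at 0.23 in series 22 and 0.69 in series 32. The standard errors of these differences, 0.34 to 0.63 on the log2 scale, set the size of difference that could be seen.

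Of 90 relatives of these genes, listed by family and as parts of the endfoot scaffold that holds Aqp4, 62 passed the filter. At the study's threshold 1 of the 62 was higher in Klf9 f/f and 7 were lower, with a median log2 fold change of 0.029, beside 1.82% and 2.50% of all genes. The gene called higher was Slc12a9, an orphan relative of the chloride cotransporters, with a log2 fold change of 0.36 ± 0.16. The calls of lower genes fell on Gja4, Gjc1, Aqp1, Kcnj8, Kcnj13, Slc4a5 and Trpv4.

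Of these, Kcnj13, Aqp1, Slc4a5 and Trpv4 are known for the choroid plexus. Kcnj13 stood at 19.004, 22.5 and 75.2 CPM with Klf9 +/+ and at 11.2, 8.65 and 19.9 CPM with Klf9 f/f, with a log2 fold change of -1.35 ± 0.21. It was highest in Klf9 +/+ replicate 3, the sample with the highest choroid plexus sum, and each Klf9 f/f sample lay below the Klf9 +/+ samples of its series. Aqp1, Slc4a5 and Trpv4 were high in the same sample alone, at 17.7, 21.4 and 16.5 CPM, and between 0.040 and 3.47 CPM in the other 5 samples. Their log2 fold changes were -2.14, -2.93 and -1.53 over all samples, and -1.60, -2.86 and -1.14 within series 22, which does not hold that sample. Within series 22 the values of Aqp1 and Slc4a5 rest on Klf9 +/+ replicate 2, with 63 and 57 counts, as Klf9 +/+ replicate 1 had 10 and 2 and the Klf9 f/f samples 16 and 9 and 3 and 5.

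Gja4 and Kcnj8 are known for vessels, Gja4 for arterial endothelium and Kcnj8 for pericytes. They had log2 fold changes of -1.21 and -0.97, with standard errors of 0.37 and 0.30. Gjc1, which encodes connexin 45, was at 17.4, 15.1 and 14.8 CPM with Klf9 +/+ and at 10.9, 9.43 and 7.93 CPM with Klf9 f/f. It was the only relative called whose groups did not overlap over all 6 samples, with a log2 fold change of -0.75 ± 0.17 (adjusted p = 0.729 from edgeR).

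No other relative passed, those known for astrocytes included. Among the scaffold genes, Mlc1, a membrane protein of astrocyte junctions, had a log2 fold change of 0.36 ± 0.17, its partner Hepacam 0.26 ± 0.14, and the dystrobrevin gene Dtna 0.24. Of the 12 scaffold genes 9 were above 0. Of the 10 pump genes tested, 0 passed, with Atp1b1 at 0.02, Atp1b3 at -0.29, Fxyd1 at 0.03, Fxyd5 at -0.61 and Fxyd6 at -0.12. The groups of Atp1b3 did not overlap, at 299, 290 and 283 CPM with Klf9 +/+ and 269, 226 and 219 CPM with Klf9 f/f. Such a separation downward was found for 1.35% of all genes. The chloride cotransporter genes Slc12a4, Slc12a5 and Slc12a7 were at 0.25, 0.29 and 0.13, and the bicarbonate transporter genes Slc4a2, Slc4a3, Slc4a7, Slc4a8 and Slc4a10 at -0.06, 0.12, -0.07, 0.07 and 0.03. The potassium channel genes Kcnj3, Kcnj6 and Kcnj9, of neurons, were at -0.0089, -0.09 and 0.23, and the tandem-pore channel genes Kcnk1 and Kcnk2 at -0.15 and 0.03. Panx1, Panx2 and Aqp11 stood at -0.17, 0.18 and 0.10, and Agrn, Lama2, Dag1, Dmd, Sntb2 and Clcn2 between -0.20 and 0.21.

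**Figure D4:**
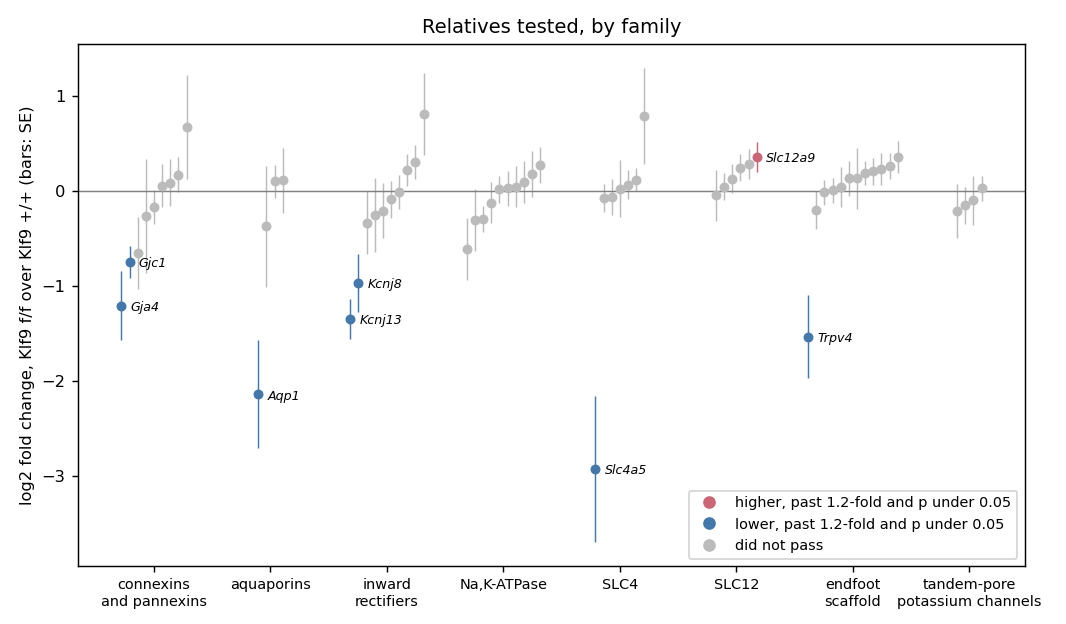
Log2 fold change, Klf9 f/f over Klf9 +/+, with its standard error, for the 62 relatives tested, in columns by family. Named points passed 1.2-fold with an unadjusted p under 0.05: Slc12a9 at 0.36 above the line and 7 genes below it, down to Slc4a5 at -2.93.

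The genes whose profile was most like the mean of the 9, over the 6 samples with each series centred on its own mean, were Nfe2l1, Asah1, Selenbp1, Erap1 and Cr1l, out of 10374 other genes with a mean of 10 CPM or more. Their Pearson's r was 0.998 to 0.999 and their log2 fold changes were 0.09, 0.09, 0.12, 0.19 and 0.11, none of which passed. With 2 series means removed, 6 samples leave few free values and the search was over many genes, so the likeness is a description with no test.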

How the data were processed

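Counts of reads per gene were deposited by the authors for 3 Klf9 +/+ and 3 Klf9 f/f samples, without normalization. Per the paper's methods, 50 bp reads were mapped with STAR to mouse mm9 and counted without strand by HTSeq. The 5 summary lines of each file were left out, among them reads on no gene (6.33% to 12.2% of a file), ambiguous reads (1.35% to 2.64%) and reads with several alignments (7.63% to 13.6%). Genes were named from GENCODE M1 (37205 of 37620 identifiers), and positions and exon lengths are its mm9 values. Samples were grouped by the labelled genotype, and the series was read from the library name. Sample totals are given in the report. The lowest count of a member in any sample was 718, so counting error was small.

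Genes above 1 CPM in at least 1 sample, before scaling, were normalized by TMM and tested with glmQLFTest of edgeR 4.0.16 (R 4.3.3), with series and genotype as terms and 3 residual degrees of freedom. Within-series values came from a fit of 4 cell means with 2. The standard error is the size of the log2 fold change divided by the square root of F. Nothing in the sources says whether the pools came from separate litters, so p-values measure the spread between these pools. The 9 genes, the relatives and the marker lists were chosen with earlier results of these data known. Relatives were named at a mean of 10 CPM or more or past the threshold, and some of these are not reported here. The test was tried on simulated counts with known changes. A log2 change of 1 was recovered at the study's threshold for 92% of the changed genes, and for 66.5% at an adjusted p under 0.05. For a log2 change of 0.4 these shares were 42.7% and 0%, so a change of that size was often missed. With no change, 809 of 14845 genes passed the threshold. Alternatives were DESeq2 1.42.0, other normalizations, filters and tests, samples left out, series 22 alone and marker covariates. Figures were drawn with matplotlib 3.10.9.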

Additional observations from a re-analysis of the deposited data

Results flagged for a closer look

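The genotype effect differed between the series at an unadjusted p under 0.05 for 2 of the 53 genes examined, the 9 genes, Klf9 and the 43 relatives with a mean of 10 CPM or more or past the threshold, both among the bicarbonate transporter relatives. Among all genes tested this was so for 1.53%. For Slc4a10, series 32 minus series 22 was -1.31 on the log2 scale with a standard error of 0.49 (unadjusted p = 0.0212 and adjusted p = 1.00 from edgeR), with 0.46 in series 22 and -0.86 in series 32. For Slc4a2 it was -0.81 with a standard error of 0.36 (unadjusted p = 0.0481 and adjusted p = 1.00 from edgeR), with 0.21 and -0.60. Both were highest in Klf9 +/+ replicate 3, at 62.1 and 72.7 CPM, where the choroid plexus markers summed to 3040 CPM, and the part of that tissue in these differences was not tested. Series 32 holds 1 sample of each genotype, assumed to vary like the others. Groups of 3 samples were not examined for single outlying samples.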

How the results depend on the processing

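Over the 17 alternatives, the 9 genes gave 153 values, of which 114 kept their direction and side of the study's threshold, 12 lost the call, 14 gained it and 13 changed sign. The fits without either replicate 3 compare the genotypes in series 22 only, so they nearly repeat the fit of series 22 alone. Members called higher numbered 4 with no filter beyond 1 count, 7 with the endothelial, mural and meningeal covariate, and 0 with the astrocyte or choroid plexus covariate, where 2.04%, 5.12%, 1.10% and 2.52% of all genes were called higher. Members called lower numbered 0 without the series term, in series 22 alone and with each of the 3 covariates. Relatives called higher numbered 0 under upper-quartile or RLE scaling, without the series term and in series 22 alone, 2 by the likelihood-ratio test and with the choroid plexus covariate, 3 with no filter and 6 with the vascular and meningeal covariate. Relatives called lower numbered 4 without the series term, 3 in series 22 alone and 2 with the choroid plexus covariate. With single samples left out, members called ranged from 0 to 3 higher and 0 to 2 lower, and relatives from 0 to 5 higher and 5 to 9 lower, with 3 members higher without Klf9 +/+ replicate 1 or Klf9 f/f replicate 2 and 2 lower without Klf9 f/f replicate 1. Log2 fold changes then ranged from 0.064 to 0.54 for Gja1, 0.22 to 0.62 for Kcnj10, 0.17 to 0.61 for Slc4a4, -0.31 to 0.41 for Aqp4, -0.13 to 0.40 for Gjb6 and -0.014 to 0.33 for Atp1b2. With the astrocyte covariate Aqp4, Kcnj10, Atp1b2 and Slc4a4 were at -0.70, -0.045, -0.19 and -0.20, and with the choroid plexus covariate at -0.30, -0.45, -0.0058 and -0.17. With the vascular and meningeal covariate Gjb2 was at 0.33. Klf9 kept its direction in all alternatives and was at -0.81, short of the threshold, with the choroid plexus covariate. Covariate fits have 2 residual degrees of freedom, and the choroid plexus level itself separated the genotypes within each series. The astrocyte level and the vascular and meningeal level went with the genotype in part. The causes of these changes were not tested. No paired analysis was possible because the labels give no replicate numbers, and those used here follow the order of deposit and mark no pairs.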

Other observations

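Set against the astrocyte markers of the same sample, 6 of the 9 genes were lower and 3 higher in Klf9 f/f. The mean log2 CPM of those markers was itself higher in Klf9 f/f, at 9.21 ± 0.19, than in Klf9 +/+, at 8.85 ± 0.21 (SD, n = 3). A gene of unchanged level would therefore be lower on this measure, and no share of all genes was taken. Aqp4 and Gja1, lower on this measure, had log2 fold changes of 0.12 and 0.33. The difference between a gene's log2 CPM and the mean log2 CPM of the 14 astrocyte markers fell, from Klf9 +/+ to Klf9 f/f, by 0.69 for Slc12a2, by 0.68 for Gjb2, by 0.30 for Aqp4 and by 0.06 for Gja1, and was 0.43 higher for Kcnj16. Every Klf9 f/f value of Slc12a2 lay below the Klf9 +/+ values of its series. Over samples, without regard to series, the exact permutation p ranged from 0.2 for Slc12a2 to 1 for Slc4a4, where 0.1 is the smallest possible.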
